A study of Mus musculus with 15 samples.

Results

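The imprinted Dlk1-Dio3 domain on mouse chromosome 12 carries a long run of miRNA hairpins. The miRNAs of its distal stretch, from the noncoding RNA Rian to the noncoding RNA Mirg, were described here in a pancreatic alpha and a pancreatic beta cell line. Members were all assays whose name carries 1 of 33 miRNA numbers of that stretch, for either arm of the hairpin. Of 584 miRNA assays on the cards, 50 were members: 43 were designed for the mouse and 7 for the rat, and 36 lay on card A and 14 on card B. No assay was found for 3 of the 33 numbers, which are miR-341, miR-412 and miR-541.

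The samples were αTC1-6, a mouse glucagonoma line labelled pancreatic alpha cell, and βTC1, a mouse insulinoma line labelled pancreatic beta cell, each a tumour-derived line and at passages 20 to 40. Untreated βTC1 at 24 h, untreated αTC1-6 at 24 h, untreated αTC1-6 at 48 h, and αTC1-6 exposed to cytokines for 24 h or for 48 h gave 5 groups of 3 samples each. The cytokine cocktail held IL1b at 50 IU/ml, IFNg at 1000 IU/ml and TNFa at 1000 IU/ml. Levels came from TaqMan low density cards, in which the Ct is the PCR cycle at which a signal crosses a threshold, so that a lower Ct is a higher level. ΔCt is the Ct minus that of miR-26a in the same sample. A difference of 1 cycle is 1 unit on the log2 scale, and a Ct of 40 stands for an undetermined well. The Ct of miR-26a ran from 16.97 to 18.98 over the 15 samples.

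In placental mammals the genes of this domain are expressed from 1 parental chromosome only. Protein-coding genes such as Dlk1 are read from the paternal copy, and the noncoding RNAs Meg3, Rian and Mirg from the maternal copy. The miRNAs lie in a row within and between these transcripts and are thought to be cut from long precursors, with a 5p and a 3p product from the arms of each hairpin. A mature miRNA pairs with target mRNAs mainly through its seed, which is bases 2 to 8. The miRNAs of this cluster are best known from brain, placenta and embryo, and the domain is also active in the endocrine pancreas.

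In RefSeq (GRCm38.p6) the members belonged to 32 hairpins. The hairpin of miR-370 lies within the Rian transcription unit, 24 hairpins lie between Rian and Mirg as annotated, and 7 lie within the Mirg transcription unit. Assay names without an arm were matched to an arm by the established nomenclature, and 40 of the 43 mouse assays had a mature sequence in RefSeq, from 19 to 24 bases long. These 40 sequences carried 39 different seeds, so that most members share no seed. Among these 40, the only members with the same seed were miR-376b* and miR-376c*, and a further 7 pairs differed by 1 seed base. The rat assays are not among the 40. Mouse miR-379-3p, the counterpart of the rat assay of miR-379*, carries the seed of miR-411*. The sequences below are those of the members that the results turn on, in RNA letters from 5′ to 3′, with the seed in capitals. The first set holds members with a Ct in every sample of both lines and the largest differences between them, in the order of their hairpins along the chromosome, and it shows pairs of related seeds such as those of miR-379 and miR-411 or of miR-376b and miR-376a.
miR-379 (miR-379-5p): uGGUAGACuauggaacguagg
miR-411 (miR-411-5p): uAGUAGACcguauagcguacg
miR-380-5p: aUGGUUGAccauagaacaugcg
miR-376b (miR-376b-3p): aUCAUAGAggaacauccacuu
miR-376b* (miR-376b-5p): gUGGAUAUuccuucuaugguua
miR-376a (miR-376a-3p): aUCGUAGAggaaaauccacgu
miR-382 (miR-382-5p): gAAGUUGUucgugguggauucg
miR-485* (miR-485-3p): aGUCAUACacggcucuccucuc
miR-154* (miR-154-3p): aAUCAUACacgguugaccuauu
miR-409-3p: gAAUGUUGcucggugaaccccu
miR-369-5p: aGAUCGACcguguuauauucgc
miR-410 (miR-410-3p): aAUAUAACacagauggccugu

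The second set holds members that did not differ past the threshold although their neighbours did (miR-494, miR-667 and miR-381). It also holds some, not all, of those whose call depended on which of the deposited tables was read (miR-370, miR-380-3p, miR-539, miR-666-5p, miR-668 and miR-679). For miR-543 and miR-409-5p, printed with them, the difference depended on the table while the call held.
miR-370 (miR-370-3p): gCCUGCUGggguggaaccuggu
miR-380-3p: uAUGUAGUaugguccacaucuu
miR-494 (miR-494-3p): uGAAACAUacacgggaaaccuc
miR-679 (miR-679-5p): gGACUGUGaggugacucuuggu
miR-666-5p: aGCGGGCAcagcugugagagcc
miR-543 (miR-543-3p): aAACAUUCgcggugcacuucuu
miR-667 (miR-667-3p): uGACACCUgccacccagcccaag
miR-381 (miR-381-3p): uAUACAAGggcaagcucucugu
miR-539 (miR-539-5p): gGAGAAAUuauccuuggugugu
miR-668 (miR-668-3p): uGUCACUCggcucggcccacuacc
miR-409-5p: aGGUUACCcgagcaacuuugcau

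The 5 members with the lowest mean Ct over the 15 samples were miR-411, miR-382, miR-376c, miR-379 and miR-409-3p. Assays differ in efficiency, so no level was compared between members. From 26 to 32 members had a Ct in a βTC1 sample, from 36 to 42 in an αTC1-6 sample of 24 h, and from 45 to 48 in an αTC1-6 sample of 48 h. The rat assay of miR-543 had a Ct in no sample. These counts are of the normalized table, the source of all values below unless stated. The non-normalized table, which holds the Ct values before normalization, gave from 36 to 40 members in βTC1 and from 44 to 50 in αTC1-6 of 24 h. On card A, 71 member wells of the 24 h samples, from 4 to 12 in each sample, were undetermined in the normalized table and had a Ct in the non-normalized one. At 48 h there were 0 such wells. Where both tables had a Ct on card A, 12 of 418 member wells differed by more than 0.01 cycle. The source of the disagreement was not given in the sources used here. Results that rest on it are marked as such below.

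**Figure D1:**
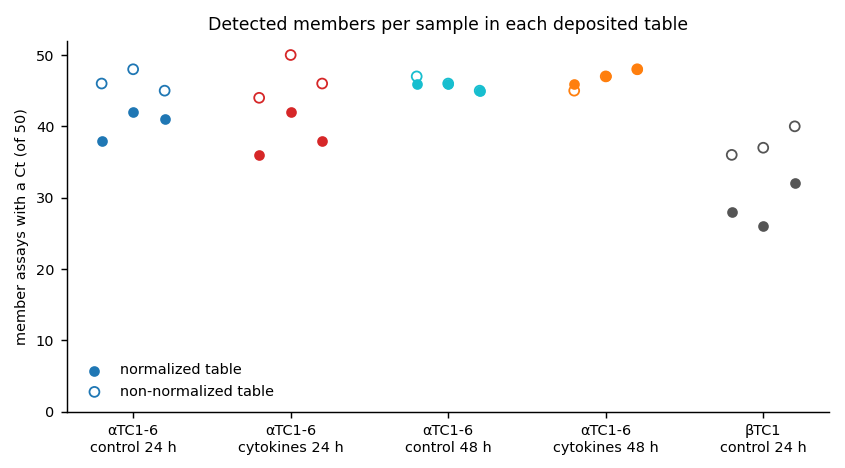
Number of the 50 member assays with a Ct (vertical axis) in each of the 15 samples, by group (horizontal axis); filled points are the normalized and open points the non-normalized table. The open points lie above the filled ones in all 9 samples of 24 h, and βTC1 had the fewest members detected in both tables, from 26 to 32 and from 36 to 40.

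The first comparison asked how the miRNA profile of αTC1-6 differs from that of βTC1 without treatment. Most members tested stood far higher in αTC1-6. Of 39 members tested, 27 were higher in αTC1-6 and 0 in βTC1 at an adjusted p under 0.05 (limma, Benjamini-Hochberg adjustment within each card). Of all 480 miRNA assays tested, 11.9% were higher in αTC1-6 and 17.7% in βTC1. Of the 27, 16 had a Ct in every sample. The other 11 had undetermined wells in βTC1, set to a Ct of 40, and 5 of them had no Ct there at all, so that they entered the test through αTC1-6 and could only be higher in that line. Over the 23 members with a Ct in every sample, the median difference was 4.97 on the log2 scale, beside -0.52 over the 303 other miRNAs with a Ct in every sample. Of the 50 members, 11 had a Ct in fewer than 3 of the 6 samples and were not tested. All 6 samples are bulk RNA, in which fewer cells of a type and less RNA per cell cannot be told apart.

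For miR-411, the ΔCt was 3.64, 4.07 and 4.27 in αTC1-6 and 10.6, 10.2 and 10.4 in βTC1. The groups lay far apart, at 3.995 ± 0.32 and 10.4 ± 0.17 (SD, n = 3 each), a difference of 6.42 ± 0.42 (log2, SE; limma adjusted p = 7.03e-05). MiR-379, whose hairpin is the neighbour of that of miR-411 and whose seed differs from its seed by 1 base, had a ΔCt of 4.97, 5.41 and 5.25 in αTC1-6 and of 10.6, 10.2 and 10.9 in βTC1. Its difference was 5.36 ± 0.42. On the 3p side, miR-411* had a ΔCt of 8.77, 8.86 and 9.32 in αTC1-6 and of 12.6, 13.2 and 14.5 in βTC1, again without overlap. The 3p assay of miR-379, the rat assay of miR-379*, did not follow. Its ΔCt was 8.30, 8.68 and 9.33 in αTC1-6 and 9.09, 2.50 and 11.6 in βTC1, which overlap, a difference of -1.05 ± 2.33 (adjusted p = 0.795).

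Among miR-376a, miR-376b and miR-376c, which lie side by side, ΔCt values of miR-376a were 7.99, 7.63 and 8.29 in αTC1-6 and 13.6, 13.2 and 13.4 in βTC1. Those of miR-376b were 6.70, 6.43 and 5.92 in αTC1-6 and 13.2, 11.2 and 12.5 in βTC1. Every αTC1-6 sample thus stood above every βTC1 sample for both, and also for miR-376c, with a difference of 4.79 ± 0.44, and for miR-376b*, with 6.18 ± 0.66. The printed sequences of miR-376a and miR-376b resemble each other over much of their length, and how far these assays detect each other was not tested. The 5p assays miR-376a* and miR-376c* did not pass the test (adjusted p = 0.495 and 0.598), with 1 of the 3 βTC1 samples of miR-376c* at a Ct of 28.1 and the other 2 undetermined.

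Near the Mirg end the picture was the same. MiR-382 had a ΔCt of 4.50, 3.93 and 5.28 in αTC1-6 and of 10.2, 9.20 and 9.84 in βTC1. MiR-485* had a ΔCt of 5.56, 5.44 and 4.70 in αTC1-6 and of 12.6, 10.3 and 12.9 in βTC1. MiR-409-3p had a ΔCt of 5.34, 4.403 and 5.13 in αTC1-6 and of 12.6, 10.8 and 11.5 in βTC1, a difference of 6.65 ± 0.64. None of these overlapped between the lines. MiR-410, the last hairpin of the row, differed by 5.45 ± 0.55, and miR-369-5p, next to it, by 4.97 ± 0.75.

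MiR-154*, encoded within the Mirg unit, showed the largest difference among members with a Ct in every sample, and that size rests in part on undetermined duplicate wells. Its ΔCt was 9.79, 9.08 and 9.17 in αTC1-6 and 15.5, 17.8 and 18.2 in βTC1, a difference of 7.82 ± 0.81 (adjusted p = 0.0045). In 2 of the 3 βTC1 samples 1 of its 2 wells was undetermined and entered the mean as a Ct of 40. The non-normalized table repeats the value of the first well for both wells, and from it the difference was 5.29 ± 0.61. Its 5p partner miR-154 was undetermined in all 3 βTC1 samples in both tables, and had a Ct in 2 of 3 αTC1-6 samples in the normalized table and in 3 of 3 in the other, where it differed by 11.4 ± 0.78 against wells set to 40.

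**Figure D2:**
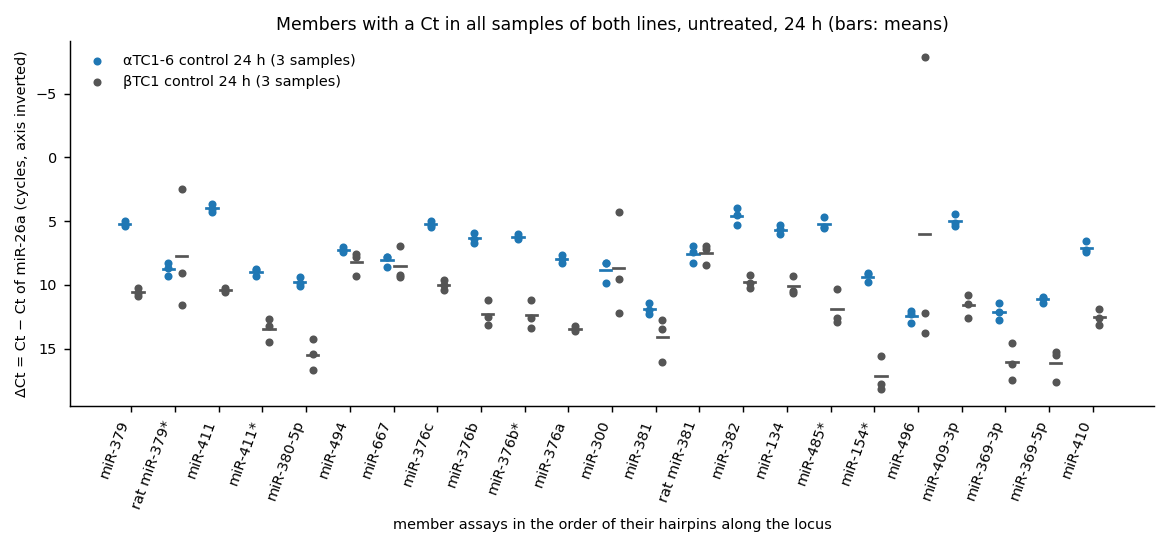
ΔCt against miR-26a (vertical axis, cycles, inverted so that higher points are higher levels) of the 23 members with a Ct in every untreated 24 h sample of αTC1-6 and βTC1, in locus order; points are the 3 samples of each line and bars their means. In 18 of the 23 all αTC1-6 points lie above all βTC1 points, by a narrow gap for miR-494, while miR-667 and the rat assay of miR-381 overlap.

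Over the members with a Ct in every sample, 16 were called, with differences from 3.98, which is 15.7-fold, to 7.82. The highest is that of miR-154*, which rests in part on wells at 40, and the next is 6.69, that of miR-485*. In 18 of the 23 every αTC1-6 sample lay above every βTC1 sample, against 14.4% of all 326 miRNA assays with a Ct in every sample. By place, 20 of 31 members tested between Rian and Mirg were called, and 6 of 7 within the Mirg unit. The 1 member within the Rian unit, miR-370, was called from the normalized table alone, as were miR-380-3p and miR-539 between Rian and Mirg. Of all 480 miRNA assays tested, 11.9% were called higher in αTC1-6. The counts by place include members with no Ct in βTC1, which could only be higher in αTC1-6. They are miR-380-3p, miR-543 and the rat assay of miR-382* between Rian and Mirg, miR-409-5p within the Mirg unit, and miR-370. Both arms had a mouse assay for 11 hairpins. Both arms were called for 6 of them (miR-369, miR-376b, miR-380, miR-409, miR-411 and miR-485) and 1 arm for 4 (miR-154, miR-376a, miR-376c and miR-382). The hairpin of miR-380 is among the 6 by the normalized table alone, and the other arms of miR-154 and miR-382 were not tested. For the hairpin of miR-300 neither was called, and its βTC1 values held wells with a Ct of 5.34 and 10.4, far below any other of its wells.

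Some members did not follow their neighbours. MiR-494 had a ΔCt of 7.01, 7.42 and 7.30 in αTC1-6 and of 7.59, 7.78 and 9.30 in βTC1, a difference of 0.98 ± 0.60 (adjusted p = 0.259). MiR-667 had a ΔCt of 7.83, 7.84 and 8.56 in αTC1-6 and of 9.20, 6.96 and 9.40 in βTC1, a difference of 0.44 ± 0.79 (adjusted p = 0.701). MiR-494 follows miR-329 along the chromosome and miR-667 lies between miR-495 and miR-376c, all of which were called higher in αTC1-6. MiR-381 differed by 2.21 ± 0.96 with its mouse assay (adjusted p = 0.122) and by -0.03 ± 0.63 with its rat assay, whose ΔCt was 6.98, 7.40 and 8.27 in αTC1-6 and 6.96, 7.19 and 8.42 in βTC1. These errors do not show equal levels. The values of the lines overlap for miR-667 and the rat assay of miR-381, and are set apart by a narrow gap for miR-494 and the mouse assay of miR-381. MiR-496 differed by -6.42 ± 5.89, with a Ct of 10.5 in 1 βTC1 sample against 30.9 and 31.3 in the others. Its αTC1-6 samples ran from 29.6 to 32.0.

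**Figure D3:**
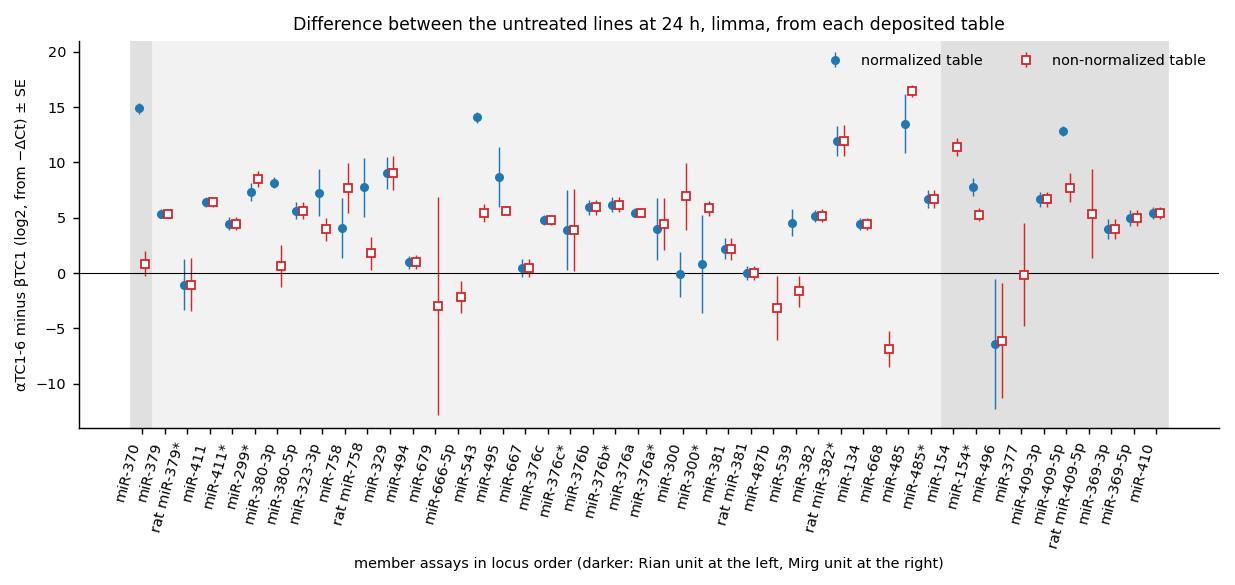
Difference between untreated αTC1-6 and βTC1 at 24 h (vertical axis, log2 ± SE from limma; above 0 is higher in αTC1-6) of each tested member in locus order, from the normalized (filled circles) and the non-normalized table (open squares), with undetermined wells at a Ct of 40 and darker ground for the Rian unit at the left and the Mirg unit at the right. Most pairs coincide near 5, whereas miR-370 falls from 14.9 to 0.86 and miR-380-3p from 8.17 to 0.64 in the non-normalized table.

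Of the called members, 5 were undetermined in every βTC1 sample, among them miR-370 with the largest difference of all, and these have no fold, since their size rests on the Ct of 40. For 4 of the 5 the non-normalized table held a Ct in βTC1. MiR-370 had a Ct of 26.2, 24.4 and 24.3 in αTC1-6 in both tables. In βTC1 it was undetermined in the normalized table and had a Ct of 24.4, 25.8 and 27.7 in the other, which overlaps αTC1-6. Its difference was 14.9 ± 0.50 (adjusted p = 1.21e-05) from the first table and 0.86 ± 1.17 (adjusted p = 0.679) from the second, and over all alternatives the adjusted p ran from 6.01e-12 to 0.679. MiR-380-3p had non-normalized Ct values of 31.0, 28.6 and 29.1 in αTC1-6 and of 27.6, 35.01 and 28.5 in βTC1, and was likewise called from the first table alone.

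In contrast, miR-543 and miR-409-5p were higher in αTC1-6 by either table. MiR-543 had a Ct of 27.0, 24.9 and 25.5 in αTC1-6 and non-normalized values of 30.03, 32.3 and 31.8 in βTC1, a difference of 5.45 ± 0.80 (adjusted p = 0.0085, the highest over the alternatives). MiR-409-5p had a Ct of 28.0, 26.3 and 26.8 in αTC1-6 and non-normalized values of 36.2, 32.6 and 35.9 in βTC1, a difference of 7.71 ± 1.29 (adjusted p = 0.013, the highest over the alternatives). These are values of its mouse assay. Its rat assay had no Ct in these samples of either line in the normalized table. From the other table the rat assay differed by 5.37 ± 4.02 (limma adjusted p = 0.467). The rat assay of miR-382* was undetermined in all βTC1 samples in both tables, with a Ct of 31.6, 25.0 and 27.1 in αTC1-6. The mouse assay of miR-382* did not show this split. It had a Ct in 1 of 3 samples of each line in both tables and was not tested. Of the 27 called members, 24 were also called from the non-normalized table, and for 17 the difference was equal within 0.01. The 3 lost were miR-370, miR-380-3p and miR-539, and the difference of miR-539 turned from 4.54 ± 1.22 to -1.63 ± 1.40. Called from the non-normalized table alone were miR-154 and miR-300*. In all, 26 of 46 members tested there were higher in αTC1-6, against 8.53% of assays, and miR-668 was called lower in αTC1-6, with a difference of -6.88 ± 1.60. Among the 26, miR-154, miR-299*, miR-300*, miR-485 and the rat assay of miR-382* had no Ct in βTC1 in that table. They entered the test through αTC1-6 and could only be higher there, against wells set to 40.

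**Figure D4:**
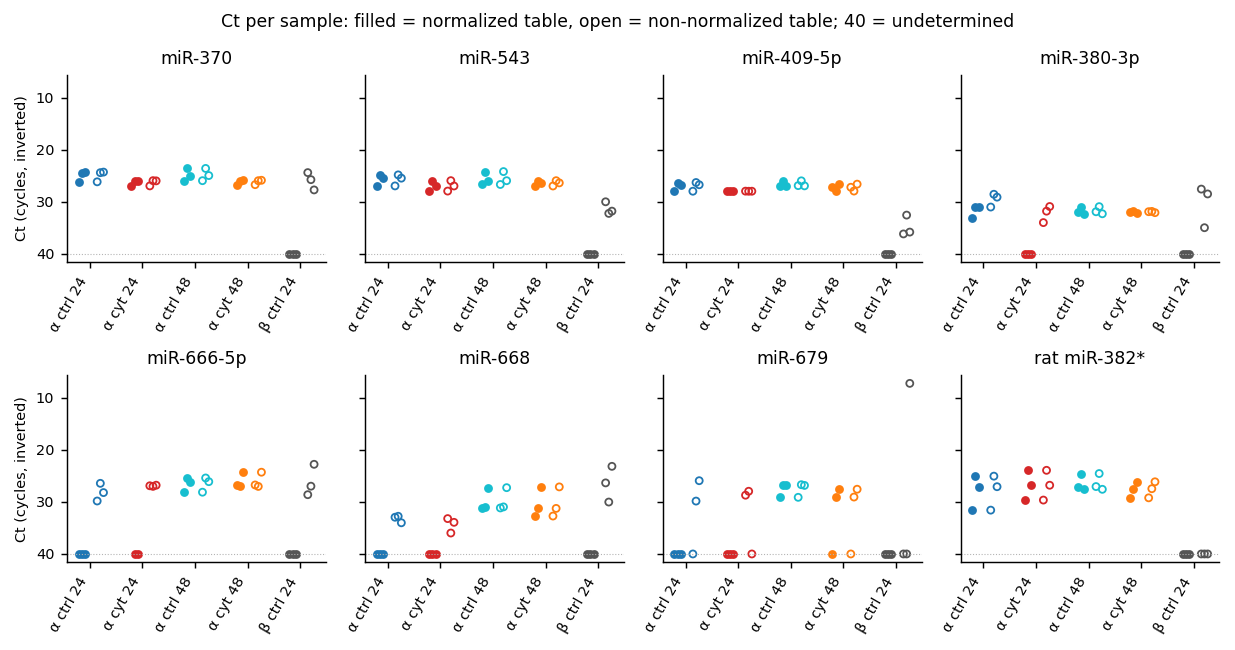
Ct (vertical axis, cycles, inverted) of 8 members in each sample, by group (horizontal axis: α is αTC1-6, β is βTC1, ctrl is control, cyt is cytokines, with the time in h); filled points are the normalized and open points the non-normalized table, and 40 marks undetermined wells. Open points of miR-370 in βTC1 lie from 24.4 to 27.7 where the filled points are at 40, whereas the rat assay of miR-382* is at 40 in βTC1 in both.

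The islet endocrine marker miR-375 had a Ct from 13.4 to 15.98 in all 15 samples. The cards cannot show glucagon or insulin mRNA. The islet endocrine list of 3 assays, with miR-375 among them, summed to 6.55 to 16.7 relative to miR-26a in αTC1-6 controls of 24 h and to 17.5 to 21.9 in βTC1. The median Ct of miR-375 was 14.9 in these αTC1-6 samples and 13.9 in βTC1, so that it dominates the sum. MiR-7a and miR-7b went the other way. Their median Ct was 20.9 and 21.3 in αTC1-6 (2 samples for miR-7b) and 22.1 and 22.3 in βTC1. Among the lists of other cell types, the exocrine, endothelial and mesenchymal ones stood apart between the lines. The neuronal, blood, muscle and liver lists overlapped. For the neuronal list the sums were 0.498 to 1.05 in αTC1-6 and 0.577 to 0.741 in βTC1. The exocrine markers miR-216a, miR-216b and miR-217 were undetermined in all 3 αTC1-6 control samples of 24 h, whereas each βTC1 sample had a Ct for every one of them. Their summed level relative to miR-26a was 0 in αTC1-6 and from 0.026 to 0.098 in βTC1. This rests on the normalized table, since in the other each of the 3 had a Ct in 1 of these αTC1-6 samples. The endothelial list, 2 assays of miR-126, summed to 0.0065 to 0.014 in αTC1-6 and to 0.040 to 0.062 in βTC1. The mesenchymal list of 5 assays, of which miR-199a-5p, miR-214 and miR-143 had no Ct in the 24 h controls of either line, summed to 0.00043 to 0.0012 in αTC1-6 and to 0.0013 to 0.0017 in βTC1. In the non-normalized table miR-214 and miR-143 had a Ct in all 3 samples of both lines, so these sums too rest on the normalized one. The part of these cells or markers in the members' difference was not tested.

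In the rest of the Dlk1-Dio3 domain, 9 of 16 miRNAs tested of the anti-Rtl1 and Meg3 part, which lies before Rian, were higher in αTC1-6 and 0 in βTC1. Of the other imprinted miRNAs, 8 of 16 tested of the Sfmbt2 cluster, 3 of 3 of the Gnas locus and 2 of 2 assays of the Mest miRNA miR-335 were higher in αTC1-6, and 0 of any of these lists in βTC1. Of all miRNA assays tested, 11.9% were higher in αTC1-6. In the order given, 7 of 16, 6 of 16, 1 of 3 and 0 of 2 assays had a Ct in every sample. In each list the calls outnumber these, so some calls came from assays with undetermined or blank wells. Among assays with a Ct in every sample, all αTC1-6 samples lay above all βTC1 samples for 4 of 7, 3 of 6 and 1 of 1. For 1 of the 6 Sfmbt2 assays they lay below. From the non-normalized table the counts were 7 of 20, 5 of 19, 1 of 3 and 1 of 2, against 8.53% of all assays.

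The second question was how inflammatory cytokines alter the αTC1-6 profile. The 24 h controls used here are the same samples as in the comparison of the lines and, below, of the times. After 24 h, 1 of 41 members tested passed the threshold, against wells set to 40. Of all assays 0.225% were called, which is that same member, miR-380-3p. At an unadjusted p under 0.05 there were 3 of 41 members, against 4.49% of assays. Of the 32 members with a Ct in every sample, 30 had a lower mean with cytokines, against 59.0% of such assays in all. Their median difference was -0.61, beside -0.06 over the other miRNAs with a Ct in every sample. Referred to U6 and small nucleolar RNAs instead of miR-26a these medians were -1.01 and -0.46. A change of reference moves both medians alike and leaves the gap of -0.55 as it is. The gap was -0.34 without the first cytokine sample (-0.58 and -0.24) and -0.82 without the first control (-0.66 and 0.16). With miR-26a as the reference, the anti-Rtl1 and Meg3 part of the domain went the same way. Of its 13 assays with a Ct in every sample, 11 were lower, with a median of -0.48. No test of the members as a group was made.

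Replicate numbers paired the αTC1-6 samples of a time point, with correlations between same-numbered samples from 0.276 to 0.476 at 24 h and from 0.259 to 0.443 at 48 h (278 assays with a Ct in all 15 samples, each sample as its deviation from its group mean). With the replicate as a block, 0 of 41 members passed the threshold at 24 h, and 11 had an unadjusted p under 0.05 against 10.6% of assays. Of these 11, 10 were lower with cytokines and 1 was higher. Of the 47 such assays in all, 25 were lower and 22 higher. MiR-370 was an example of a lower member. Its ΔCt was 7.20, 6.88 and 6.63 in control and 8.10, 8.01 and 8.05 with cytokines, a non-overlapping difference of -1.14 ± 0.32 (adjusted p = 0.648, 0.324 with the block, and from 0.319 to 0.991 over the alternatives).

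MiR-380-3p is the 3p product of a hairpin that lies just behind that of miR-299. It had a Ct of 33.1, 30.9 and 31.0 in the 24 h controls and was undetermined in all 3 samples treated for 24 h, which gave -8.13 ± 0.44 (adjusted p = 0.0012, and 0.119 with the block). The non-normalized table had Ct values of 31.0, 28.6 and 29.1 in control and of 34.0, 31.8 and 30.9 with cytokines, so that each treated sample had a later Ct than the control of its number while the ranges met. From it the difference was -2.49 ± 0.68 (adjusted p = 0.680; 7.64e-07 to 0.680 over the alternatives). There 0 of 48 members passed, and 3 had an unadjusted p under 0.05. Its 5p partner miR-380-5p had a ΔCt of 9.88, 9.42 and 10.1 in control and of 10.1, 9.54 and 11.0 with cytokines, which overlap. At 48 h, where the tables agree, miR-380-3p had a Ct of 31.9, 31.0 and 32.3 in control and of 31.9, 31.9 and 32.1 with cytokines, a difference of -0.32 ± 0.55.

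After 48 h of cytokines 0 of 47 members tested passed the threshold, beside 0.562% of all assays, and 9 had an unadjusted p under 0.05, against 11.2%. All 9 were lower with cytokines. With the replicate block 0 passed as well, and 17 had an unadjusted p under 0.05, against 22.7% of assays. Of 42 members with a Ct in every sample, 40 had a lower mean with cytokines. This direction was common, since 82.2% of all such assays were lower too. The median difference was -0.86 over the members and -0.51 over the other 368 miRNAs. With each sample centred on its median, 27 of 42 members were lower and the medians were -0.18 and 0.16, and with U6 and small nucleolar RNAs 30 of 42 were lower, with -0.26 and 0.08. The gap of -0.34 cannot change with the reference, while the sign of the others' median did. In the anti-Rtl1 and Meg3 part, 16 of 17 assays with a Ct in every sample were lower, with a median of -0.88 relative to miR-26a.

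The 3 members with the lowest unadjusted p and a Ct in every 48 h sample were miR-485*, miR-411* and miR-370. MiR-485* had a ΔCt of 4.99, 5.04 and 4.68 in control and of 6.48, 6.24 and 6.51 with cytokines, a difference of -1.51 ± 0.28 (adjusted p = 0.117). MiR-411* had a ΔCt of 8.22, 9.15 and 8.96 in control and of 10.5, 11.3 and 11.6 with cytokines, a difference of -2.35 ± 0.45 (adjusted p = 0.117). MiR-370 had a ΔCt of 6.99, 6.64 and 7.04 in control and of 8.25, 8.27 and 8.45 with cytokines, a difference of -1.43 ± 0.28 (adjusted p = 0.207). In none of the 3, chosen by their low p, did the groups overlap, yet none passed the adjustment. Of the 42 members with a Ct in every 48 h sample, 15 had all treated samples below all controls in level. The same held for 89 of all 410 such assays. For miR-370 the difference at 24 h, set against separate controls, was of similar size. The 5p product miR-411 had a ΔCt of 2.97, 3.21 and 3.995 in control and of 3.42, 4.24 and 4.42 with cytokines at 48 h, which overlap.

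Over the 31 members with a Ct in all 12 αTC1-6 samples, 28 had a lower mean with cytokines at both times, 1 at 24 h alone and 2 at 48 h alone. Among the 279 other miRNAs 139 were lower at both times, which is 49.8%. The test of the cytokine effect at 48 h minus that at 24 h called 1 of 45 members, miR-380-3p, against 0.21% of 477 assays. Its value was 7.81 ± 0.70 (adjusted p = 2.94e-04), from the undetermined wells at 24 h described above. From the non-normalized table it was 2.17 ± 0.89 (adjusted p = 0.996; 3.2e-05 to 0.996 over the alternatives). The islet endocrine list, led by miR-375, summed to 6.45 to 16.6 relative to miR-26a in the 48 h controls and to 3.61 to 6.80 with cytokines. These ranges overlap. The median Ct of miR-375 went from 14.9 in control to 15.8 with cytokines. Those of miR-7a (20.95 and 20.89) and miR-7b (21.9 and 21.3) did not rise. The neuronal list of 4 assays summed to 0.577 to 1.11 in the 48 h controls and to 0.439 to 0.562 with cytokines. Differences of its assays ran from -0.85 for miR-128a to -0.11 for miR-124. The median over all miRNA assays with a Ct in every 48 h sample was -0.55. The part of these markers in the members' differences was not tested.

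**Figure D5:**
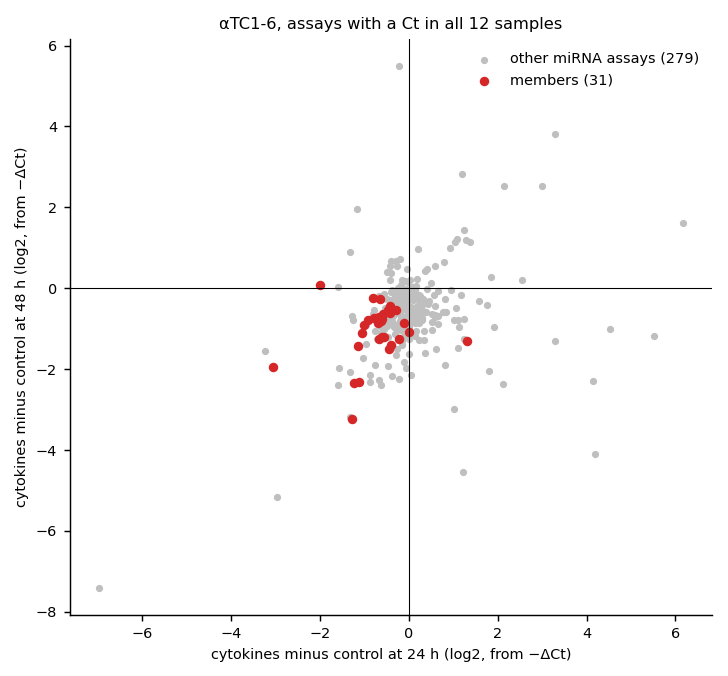
Difference between cytokine-treated and control αTC1-6 at 24 h (horizontal axis) and at 48 h (vertical axis), both log2 from the negative ΔCt, for miRNA assays with a Ct in all 12 αTC1-6 samples; red points are 31 members and grey points 279 other assays. Of the members, 28 lie in the lower left part, below 0 on both axes, as do 139 of the others.

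Untreated αTC1-6 at 48 h were set against those at 24 h, the comparison that shows what time in culture does without cytokines. Of 45 members tested 3 were higher at 48 h, against 5.52% of 489 assays, and 0 lower. These were miR-666-5p, miR-679 and miR-668, whose hairpins lie between Rian and Mirg, and all 3 were undetermined in every 24 h control of the normalized table, so that they entered the test through the 48 h samples and could only be higher there. With a Ct in every sample required, 0 passed. In the non-normalized table miR-666-5p had a Ct of 29.8, 26.4 and 28.2 at 24 h and of 28.1, 25.4 and 26.1 at 48 h. MiR-679 had a Ct of 29.8 and 25.9 in 2 of the 24 h controls and of 29.1, 26.7 and 26.8 at 48 h. MiR-668 had a Ct of 32.9, 32.8 and 34.0 at 24 h and of 31.2, 31.0 and 27.3 at 48 h, without overlap. By those values 0 of 47 members passed and 2 had an unadjusted p under 0.05. The rat assay of miR-377 also had a Ct in all 48 h controls, of 33.9, 31.6 and 11.8, and in none at 24 h in either table. Its mouse assay did not show this. It had a Ct in 2 of 3 of the 24 h controls in the normalized table and in 3 of 3 in the other. There its mean ΔCt was 13.6 at 24 h and 13.7 at 48 h. Over the 37 members with a Ct in every sample the median difference was 0.16, beside -0.13 over the other 324 miRNAs. Without the first of the 24 h controls the medians were 0.14 and 0.10, and the gap between them fell from 0.29 to 0.04. With U6 and small nucleolar RNAs as the reference the members' median turned to -0.05, and to -0.05 without the first of the 48 h controls.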

How the data were processed

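MiRNA levels were measured in 15 samples with TaqMan rodent cards A and B (384 wells each). The authors deposited Ct values in the non-normalized table and ΔCt values, on a log2 scale, in the normalized table, each relative to miR-26a of that sample. The tables of fold changes hold the authors' own comparisons and were not used. How the multiple reference genes named in the methods relate to miR-26a is not given in the sources used here. Members and lists were chosen with earlier results of these data known.

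Ct values were recovered from the ΔCt, undetermined wells were kept at 40, blank wells (8 of 840 member values) were left out, and duplicate wells (6 members) were averaged. Assays with a Ct in at least 50% of the samples compared were fitted on the negative ΔCt with limma 3.58.1 in R 4.3.3 (lmFit, eBayes, two-sided, Benjamini-Hochberg within card, threshold 0.05). Controls (7 assays) and miR-26a were left out. With 3 against 3 samples an exact permutation test cannot go below p = 0.1, so none is given. The study describes the 3 samples of a group as independent biological replicates. Tables were made with Python 3.11.15 and pandas 2.3.3. The fit was tested on simulated data without undetermined wells, so that test does not cover calls that rest on wells set to 40. Replicate numbers were taken to pair samples where all 3 correlations of same-numbered samples were over 0.1, which held for the cytokine comparisons at 24 h and 48 h but not between the lines (0.0642 to 0.0945) nor between the times (-0.045 to 0.238).

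Members are named by these rules: the 12 largest called differences with a Ct in every sample, members with a Ct in all samples of 1 group and none of the other, the 3 lowest p where none passed, the 5 lowest mean Ct, members never detected, the other arm of a named hairpin, and miR-380-3p and miR-154*. MiR-494, miR-667, miR-381, miR-496, miR-539 and miR-300 were added after their values were seen. Alternatives were other references (median, U6 with small nucleolar RNAs, none), the non-normalized table, other filters, a cap at Ct 35, undetermined wells as missing, a fit over all 15 samples, a replicate block, each sample left out, and, chosen after seeing the data, wells with a Ct under 15 left out. Ct values heaped at whole cycles: 52.4% of 670 member values lay within 0.1 of a whole number, where an even spread gives 20%, so errors between samples may be uneven.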

Additional observations from a re-analysis of the deposited data

Results flagged for a closer look

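The cytokine effect on miR-380-3p differed between 48 h and 24 h by 7.81 on the log2 scale, by the test of the difference itself. All 3 samples treated for 24 h were undetermined in the normalized table, while the non-normalized table held a Ct for each of them.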

How the results depend on the processing

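The count of 27 members called, all higher in αTC1-6 than in βTC1, stayed between 20 and 31 under 11 alternatives (27 from the non-normalized table, of which 1 lower in αTC1-6). It was 16 when a Ct in every sample was required, and from 17 to 26 without 1 of the samples. Leaving out an αTC1-6 sample takes the members with no Ct in βTC1 out of the test. These are miR-370, miR-380-3p, miR-409-5p, miR-543 and the rat assay of miR-382*. MiR-323-3p, miR-485, miR-495 and miR-539 stayed in the test and no longer passed the threshold. Without the second αTC1-6 sample, miR-369-3p did not pass either. All 18 alternatives called 14 members in common. For cytokines at 24 h the count of 1 became 0 with the non-normalized table, a Ct in every sample, the cap at 35, undetermined wells as missing or the replicate block, and lay from 0 to 2 without 1 of the samples: 0 without any one of the 24 h controls and 2 without the second cytokine sample. For 48 h against 24 h the count of 3 became 0 with the non-normalized table, a Ct in every sample or undetermined wells as missing, and lay from 0 to 3 without 1 of the samples: 0 without any one of the 48 h controls, when 41 members and none of the 3 were left in the test. For the difference of cytokine effects the count of 1 became 0 with the non-normalized table, a Ct in every sample, the cap at 35 or undetermined wells as missing. For cytokines at 48 h it was 0 under all 17 alternatives. The median member difference at 48 h of cytokines moved from -0.86 to -0.18 with median centring. Over the 25 results of single members that were recomputed, 10 values no longer passed the threshold, 6 of these with the non-normalized table, and 0 changed direction. The differences of miR-539 (4.54 to -1.63) and miR-300 (-0.11 to 6.93) between the lines, not among those 25, changed direction with the non-normalized table. The replicate block changed the call of miR-485* between the lines (6.69, no longer past the threshold) and of miR-380-3p at 24 h, and left 22 members called between the lines. Except as stated above, the cause of these changes was not tested. The cards have no depth, and 3 samples a group limit the precision.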
